A study of Mus musculus with 4 samples.

Results

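The genes described here are 9 heparan sulfate proteoglycan core proteins of the cell surface, namely the 5 glypicans Gpc1, Gpc2, Gpc3, Gpc4 and Gpc6 and the 4 syndecans Sdc1, Sdc2, Sdc3 and Sdc4, out of 32287 features in the count matrices. They were taken by name and read in barcodes that had 1000 or more genes detected and no more than 10% of UMIs from mitochondrial genes, which left 21429 of 29930 barcodes. The families were selected on measured levels in these same libraries, among them the low Gpc3 level in GFP cells of the ascending aorta, so all values below are descriptions. All 9 genes had UMIs in every library, and 8 of the 9 reached 5 CPM (UMIs of a gene per 1000000 UMIs of a group), the level set for a comparison. Gpc2 did not, with 25 to 89 UMIs per library. The one further mouse glypican in the matrices, Gpc5, lay outside the list with 1 UMI in all kept cells.

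The study is by its title about smooth muscle cells (SMCs) of the mouse aorta from different embryonic origins, measured in single cells by an RNA-seq method that captures 3′ transcript ends in droplets and counts them by unique molecular identifiers (UMIs). All mice carried the Wnt1-Cre2 driver and the mT/mG reporter and were 12 weeks old. Arch-GFP held GFP-positive cells of the aortic arch, Root held cells of the aortic root with no reporter colour in its label, and Asc-GFP and Asc-RFP held GFP-positive and RFP-positive cells of the ascending aorta. In every group single live cells positive for the integrin subunit ITGA8 had been sorted before loading. With mT/mG, a cell in which Cre has acted, or whose ancestor it acted in, makes membrane GFP, and a cell without recombination makes membrane tdTomato (the RFP of the labels). GFP therefore marks descent from cells in which the Wnt1 promoter fragment drove Cre, mainly neural crest, and RFP marks all other origins together. Root cells were split by their own reporter transcripts into 576 Root eGFP cells (at least 8 eGFP UMIs and at most 1 of tdTomato) and 1832 Root tdTomato cells (at least 2 tdTomato UMIs and fewer than 8 of eGFP). A further 515 Root cells had too few UMIs of either reporter and 37 had both. The number of mice behind a library is not given in the labels.

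Each group was 1 library and both Root groups came from the same one, so no difference has a replicate check and none was tested. Intervals are exact 95% intervals and cover counting error only, not the spread between mice. The libraries held 41479646 to 104691850 UMIs over all barcodes and 39691658 to 100987052 UMIs in their 2960 to 8031 kept cells, with medians of 12628 to 13605 UMIs per kept cell. Reporter transcripts followed the labels: eGFP stood at 3838 CPM in Arch-GFP cells and 3672 CPM in Asc-GFP cells, against 16.4 CPM in Asc-RFP cells. Smooth muscle markers summed to between 53049 CPM in Root and 61048 CPM in Asc-RFP, with all 12 of 12 detected in each library. Itga8, the sorting antigen, stood at 1271 to 1481 CPM. Macrophage-like cells (162) and endothelial-like cells (70), found by clustering without the 9 genes, lay mostly in Root and Asc-RFP. Between pairs of libraries, 9 to 34 barcodes were shared. Female cells made up 29.1% of the sexed cells in Arch-GFP, 87.8% in Root, 70.1% in Asc-GFP and 54.4% in Asc-RFP. Sex and animal cannot be told apart.

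Glypicans and syndecans both carry heparan sulfate, a sulfated sugar chain that binds growth factors, chemokines and matrix proteins and holds them at the cell surface. Glypicans hang on the membrane by a lipid anchor and are known for tuning hedgehog, Wnt, BMP and FGF signalling. Syndecans span the membrane, reach the cytoskeleton through a short tail, and work beside integrins in adhesion. In the arterial wall both families are counted among the surface molecules through which SMCs sense growth factors and matrix.

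Gpc3 and Sdc3 varied most between groups, and their core promoters are shown because the results turn on these 2 genes. Of the 9 genes, 6 had a promoter entry in the RefSeq table for GRCm38.p6. Gpc3 lies on the reverse strand of the X chromosome at chrX:52272426-52613950 (GRCm38, GENCODE annotation), 107173 bp from Gpc4 at chrX:52053021-52165252 on the same strand, with 0 annotated genes between them. Sdc3 lies on the forward strand at chr4:130792537-130826319. The windows printed are the 250 bases before the RefSeq start, chrX:52613975-52614224 (reverse strand) and chr4:130792287-130792536 (forward strand), each written 5′ to 3′ on the strand of the gene. Capitals mark GGGCGG, the GC box, on either strand.
Gpc3: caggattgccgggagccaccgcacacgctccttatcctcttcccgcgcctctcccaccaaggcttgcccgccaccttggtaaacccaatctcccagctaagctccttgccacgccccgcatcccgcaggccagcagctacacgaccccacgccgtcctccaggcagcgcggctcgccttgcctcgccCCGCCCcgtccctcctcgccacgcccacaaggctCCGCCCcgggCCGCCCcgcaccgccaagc
Sdc3: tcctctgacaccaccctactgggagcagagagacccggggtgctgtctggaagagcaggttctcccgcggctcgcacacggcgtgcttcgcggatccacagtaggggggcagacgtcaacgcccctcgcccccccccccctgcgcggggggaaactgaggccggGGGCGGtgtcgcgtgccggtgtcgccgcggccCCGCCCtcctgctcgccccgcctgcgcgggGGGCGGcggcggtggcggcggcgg
Each window held 3 GC boxes, a motif present in 32.7% of 32851 promoter windows of the same length. GC content was 71.6% in the Gpc3 window and 76.4% in the Sdc3 window, beside a median of 52.4% over all windows. The Gpc3 window held 25 CpG dinucleotides and the Sdc3 window 32, beside a median of 6. Neither window held, on either strand, TATAAA (in 12.4% of windows), CTTTGA (13.8%), AGATAA (9.99%) or a CArG box, the element bound by serum response factor in many smooth muscle genes (1.47%). A match is a description of the letters and not a shown binding site, and a missing match says only that those letters are not in the window.

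**Figure D1:**
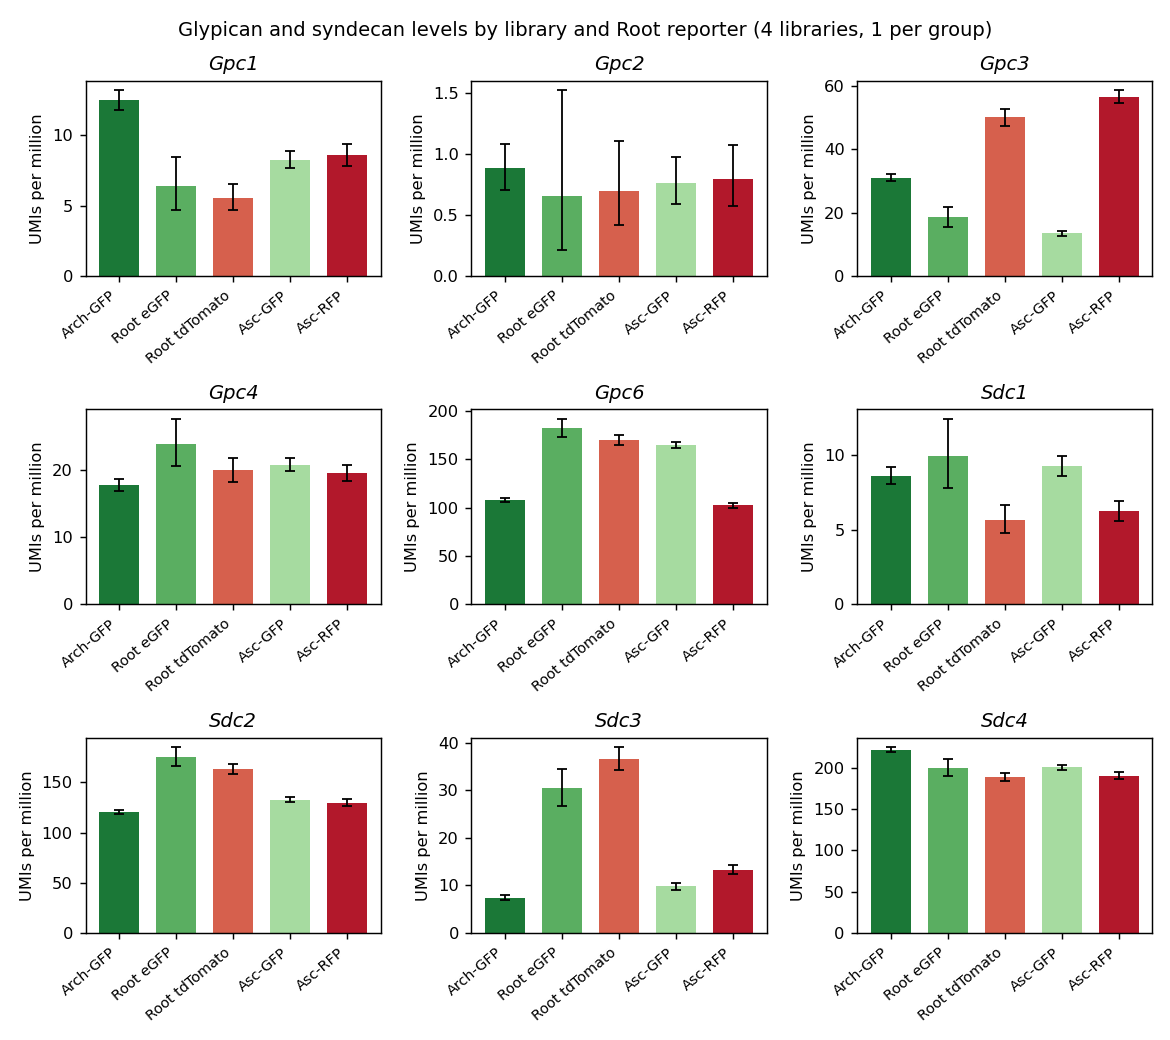
Levels of the 9 genes in CPM (y axis, from 0, scale differing by panel) in Arch-GFP, Root eGFP, Root tdTomato, Asc-GFP and Asc-RFP; bars are summed UMIs over the group and whiskers exact 95% Poisson intervals. Gpc3 is high in both tdTomato groups (50.1 and 56.6 CPM), Sdc3 in both Root groups (30.4 and 36.6 CPM), and Sdc4 lies between 189 and 222 CPM in all 5.

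Among the glypicans, Gpc3 showed the widest difference with the reporter. Gpc3 is known as a brake on growth that binds hedgehog ligands, and its loss causes an overgrowth syndrome in humans. Its level was 31.1 CPM in Arch-GFP (30.02 to 32.2), 18.5 CPM in Root eGFP (15.6 to 21.8), 50.1 CPM in Root tdTomato (47.4 to 52.9), 13.4 CPM in Asc-GFP (12.6 to 14.2) and 56.6 CPM in Asc-RFP (54.6 to 58.7). Both tdTomato groups were above all 3 GFP groups, and none of the 5 intervals overlapped with another. Asc-GFP over Asc-RFP had a log2 ratio of -2.08 (-2.18 to -1.98), so the level was 4.23-fold lower in the GFP cells. Root eGFP over Root tdTomato, both from the same library, had a log2 ratio of -1.44 (-1.70 to -1.19). Both log2 ratios stayed past 1.5-fold under all 16 processing alternatives, between -2.40 and -1.89 in the ascending aorta and between -1.55 and -1.005 in the root. Not all of these could change both ratios: other reporter limits for Root cells leave the ascending ratio as it is. The log2 ratio was 0.64 nearer 0 in the root than in the ascending aorta, a difference that was not tested. The Root cells with neither reporter stood at 56.2 CPM (50.1 to 62.9).

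The lower Gpc3 level of GFP cells was present in every cluster that could be compared. Clusters 0 to 4 of 11, all with abundant smooth muscle markers, held at least 100 cells of both ascending groups. In cluster 0 Gpc3 stood at 12.9 CPM in Asc-GFP cells against 58.7 CPM in Asc-RFP, and in cluster 1 at 10.98 CPM in Asc-GFP cells against 26.8 CPM in Asc-RFP. In cluster 2, whose cells were shallow, it stood at 11.1 CPM in Asc-GFP cells against 63.8 CPM in Asc-RFP. In cluster 3 the values were 17.4 CPM in Asc-GFP cells and 75.5 CPM in Asc-RFP, and in cluster 4, led by immediate early genes such as Fos and Egr1, 11.8 CPM in Asc-GFP cells and 30.2 CPM in Asc-RFP. The intervals of the 2 groups did not overlap in any of these 5 clusters, nor in the small cluster 7, with 32.1 CPM in 137 Asc-GFP cells and 81.9 CPM in 76 Asc-RFP cells. Within Root, cluster 5, which held 47.8% of Root cells, had 20.3 CPM in its eGFP cells (15.1 to 26.6) against 48.6 CPM in its tdTomato cells (45.0 to 52.4). Cluster 3 had 25.6 CPM in Root eGFP against 72.5 CPM in Root tdTomato, and cluster 4 had 10.1 CPM in Root eGFP against 37.6 CPM in Root tdTomato. In cluster 1, with 52 eGFP and 61 tdTomato cells of Root, the values were 22.8 CPM in Root eGFP and 41.8 CPM in Root tdTomato, and their intervals overlapped. The highest Asc-RFP value was in its 72 cells of cluster 5, at 110.5 CPM (89.8 to 134.6). Mesothelial markers summed to 11.4 CPM in cluster 5 over all libraries but to 0.05 CPM in its Root cells. Their part in this Asc-RFP value was not tested.

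In single cells Gpc3 was sparse. With every cell thinned to 5000 UMIs, 10.2% of Arch-GFP cells had a Gpc3 UMI (9.51 to 10.97), 8.11% of Root eGFP (6.001 to 10.7), 20.02% of Root tdTomato (18.2 to 22.0), 6.46% of Asc-GFP (5.84 to 7.11) and 21.5% of Asc-RFP (20.2 to 22.9). Macrophage-like Root cells had a share of 6.35% (4 of 63, 1.76 to 15.5) at a median of 11302 UMIs before thinning, and endothelial-like Root cells had 0 of 30 (up to 11.6) at a median of 8279.5 UMIs. The same medians were 12912 to 14226 UMIs in the 5 groups. Macrophage-like Asc-RFP cells had 0 of 22 (up to 15.4). Endothelial-like Asc-RFP cells had 1 of 12 (8.33%, 0.21 to 38.5), an interval that holds the Asc-RFP share. Within each of these libraries, the Root eGFP share lay inside the interval of the Root macrophage-like cells, and the Root tdTomato and Asc-RFP shares lay above those of the macrophage-like cells of their own library. Asc-GFP and Arch-GFP had 1 and 0 macrophage-like cells, so no background level was measured for them, and whether such cells lack Gpc3 was not tested. The median cell had 0 Gpc3 UMIs in all 5 groups, and the tenth of Asc-RFP cells with the most Gpc3 held 51.5% of that group's Gpc3 UMIs.

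**Figure D2:**
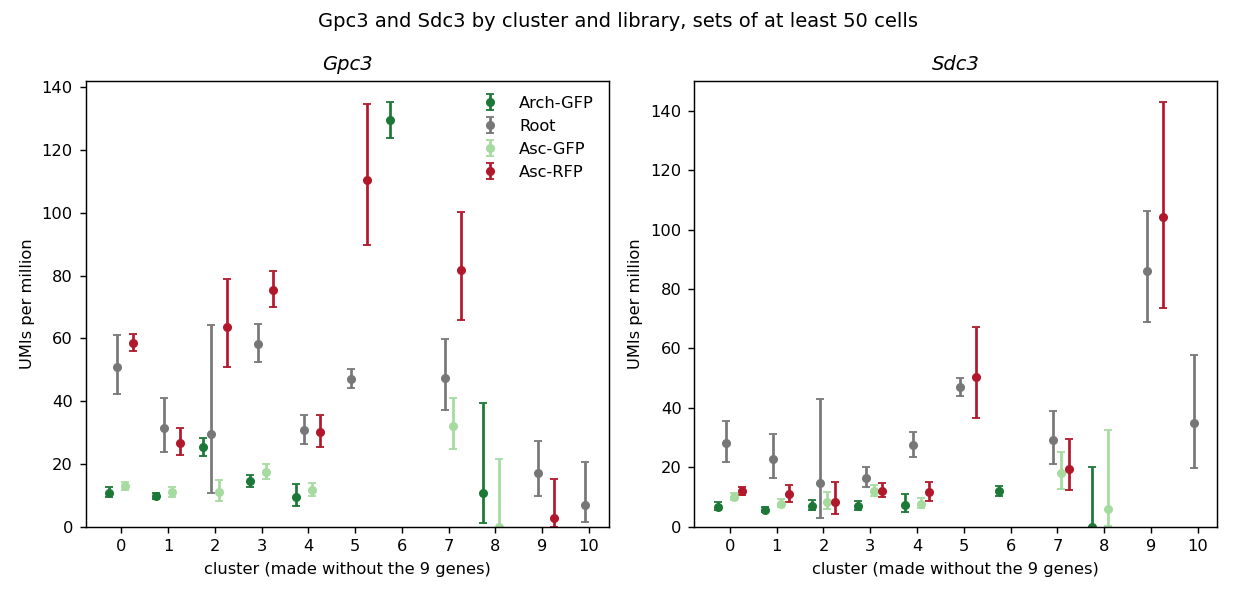
Gpc3 (left) and Sdc3 (right) in CPM by cluster (x axis) for Arch-GFP, Root, Asc-GFP and Asc-RFP; points are sums over sets of at least 50 cells of 1 cluster and 1 library, with exact 95% Poisson intervals. Gpc3 peaks in cluster 6 of Arch-GFP at 129.5 CPM, and Sdc3 peaks in cluster 9, the macrophage-like cells, and then in cluster 5.

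In the arch Gpc3 was concentrated in 1 cluster. Cluster 6, in which 1160 of the 8031 Arch-GFP cells lay, had 129.5 CPM (123.9 to 135.3), against 13.0 CPM (12.2 to 13.8) in the other Arch-GFP cells, low-UMI cells left out. The 2 intervals were far apart, with a log2 ratio of 3.32 (3.21 to 3.43), or 9.97-fold. These 14.4% of the cells held 64.8% of the Gpc3 UMIs of the library (63.1 to 66.4). Within the cluster the gene was uneven: the median cell had 0 UMIs, 14.2% of cells had 5 or more, and the tenth with the most held 55.2% of the cluster's Gpc3 UMIs. After thinning to 5000 UMIs, 30.7% of cluster 6 cells had a Gpc3 UMI (28.0 to 33.4), against 6.09% of the other Arch-GFP cells (5.48 to 6.74). Cluster 6 was led by Adamtsl1, Prss12, Hhip, Dlx6 and Tfap2b and held 0 Root cells, 26 Asc-GFP cells and 1 Asc-RFP cell, so nearly all of it came from 1 library. Its smooth muscle markers summed to 39227 CPM against 56216 CPM in the other Arch-GFP cells. Its pericyte markers, of which 5 of 6 were detected and Higd1b was at 0, summed to 1946 CPM, against 391 CPM and 6 of 6 in the other Arch-GFP cells. Most of that sum was Rgs5, with 1552 CPM in cluster 6 and 127 CPM in the other Arch-GFP cells, and its part in the Gpc3 difference was not tested.

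Of the 8 genes at or above 5 CPM, 2 were at least 1.5-fold higher in cluster 6 than in the other Arch-GFP cells and 2 at least 1.5-fold lower, beside 12.1% of all genes at that level higher and 3.59% lower. Sdc3, besides Gpc3, was higher, at 12.0 CPM in cluster 6 against 6.53 CPM in the other Arch-GFP cells. Gpc4, the chromosomal neighbour of Gpc3, was lower, at 12.0 CPM in cluster 6 (10.4 to 13.9) against 18.8 CPM in the other Arch-GFP cells (17.9 to 19.7). Gpc6 was lower too, at 68.5 CPM in cluster 6 against 115 CPM in the other Arch-GFP cells. Gpc1 lay at 17.2 CPM in cluster 6 against 11.6 CPM, and passed 1.5-fold only when the shallow cluster 2 was also left out of the other Arch-GFP cells, which made the counts 3 higher and 2 lower beside 11.9% and 3.75%. Among the other arch clusters Gpc3 stood at 10.9 CPM in cluster 0, 9.84 CPM in cluster 1, 25.3 CPM in cluster 2, 14.6 CPM in cluster 3 and 9.57 CPM in cluster 4, all far below cluster 6.

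Gpc3 in Arch-GFP was accordingly above Asc-GFP and Root eGFP only with cluster 6 included. Arch-GFP over Asc-GFP had a log2 ratio of 1.21 (1.12 to 1.31) with all cells, -0.035 without cluster 6 and 0.05 as the mean within shared clusters. Arch-GFP over Root eGFP had a log2 ratio of 0.75 (0.51 to 1.001) with all cells, -0.51 without cluster 6 and -0.46 within shared clusters, and it was 0.50, within 1.5-fold, in female cells alone. These comparisons share Arch-GFP, so they are not independent of each other.

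Gpc6 was the most abundant glypican by UMIs in every group. It is a glypican known from mouse growth plates for promoting hedgehog responses, and its gene spans 1051230 bp of chromosome 14 (chr14:116925315-117976544, GRCm38). Its level was 108 CPM in Arch-GFP (106 to 110.3), 182 CPM in Root eGFP (173 to 192), 170 CPM in Root tdTomato (165 to 175), 165 CPM in Asc-GFP (162 to 167) and 102 CPM in Asc-RFP (99.7 to 105). Both Root groups and Asc-GFP were high, with overlapping intervals between neighbours in that order, while Arch-GFP and Asc-RFP were low. In the ascending aorta it differed with the reporter in the direction opposite to Gpc3, with a log2 ratio of 0.69 (0.64 to 0.73) for Asc-GFP over Asc-RFP, while in Root the log2 ratio was 0.10 (0.01 to 0.19). Root tdTomato over Asc-RFP had 0.73 (0.67 to 0.79), Arch-GFP over Asc-GFP -0.61 (-0.64 to -0.57) and Arch-GFP over Root eGFP -0.75 (-0.83 to -0.67), all log2 ratios. In cluster 0, the largest cluster of both ascending libraries, Gpc6 stood at 173 CPM in Asc-GFP cells and 88.3 CPM in Asc-RFP cells, and the mean log2 ratio within clusters 0 to 4 was 0.54, within 1.5-fold. For Root tdTomato over Asc-RFP it was 0.38 within clusters, 0.51 without cluster 5 and 0.56 in male cells, all within 1.5-fold. Of the smooth muscle clusters, cluster 3 had the highest level, 199 CPM (194.6 to 202.9), overlapping with cluster 5 at 194 CPM (187.7 to 199.6). Nearly all sexed cells of cluster 3 were female, so its level and female sex cannot be told apart. The low-UMI cluster 8, left out of this ranking, had 303 CPM from 143 UMIs.

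Gpc6 also differed with the sex of the cells. In Arch-GFP it stood at 148 CPM in female cells (143 to 154) and 96.0 CPM in male cells (93.5 to 98.5). In Asc-GFP the values were 179 CPM in female and 143 CPM in male cells, in Asc-RFP 114 CPM in female and 90.8 CPM in male cells, and in Root 182 CPM in female and 139 CPM in male cells. Female cells were higher in all 4 libraries, with no overlap of the intervals. Within clusters the picture was mixed. In cluster 0, Arch-GFP had 191 CPM in female cells (174 to 209) and 153 CPM in male cells (146 to 160.2), but Asc-GFP had 172 CPM in female and 184 CPM in male cells, and Asc-RFP 88.8 CPM in female and 89.2 CPM in male cells, the last 2 pairs with overlapping intervals. Female cells were higher without overlap in cluster 1 of Arch-GFP (119.9 CPM in female and 84.96 CPM in male cells) and of Asc-GFP (114 CPM in female and 96.5 CPM in male cells), and in cluster 5 of Root tdTomato (204 CPM in female and 143 CPM in male cells). In cluster 1 of Asc-RFP the intervals overlapped, with 73.6 CPM in female and 86.5 CPM in male cells. Cluster 3, the highest in Gpc6, had Xist and Tsix among its leading genes and few male cells. It held 837 female and 17 male cells in Asc-GFP, 554 and 22 in Asc-RFP, and 768 and 54 in Arch-GFP. Gpc6 there was 253 CPM in female and 189 CPM in male Asc-GFP cells, and 172 and 158 CPM in Arch-GFP, with overlapping intervals. In Asc-RFP it was 153 and 140 CPM, also overlapping. The share of female cells is lowest in Arch-GFP, and the log2 ratio of Arch-GFP over Asc-GFP was -0.27 in female cells and -0.57 in male cells, both within 1.5-fold. It was also within 1.5-fold without cluster 6 (-0.52), without cluster 2 (-0.57), within clusters (-0.42) and with a stricter cell filter (-0.55). Arch-GFP over Root eGFP was -0.34 in female cells. The part of sex in the Gpc6 differences beyond these values was not tested.

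Gpc3 and Gpc4 are X-linked, and the sex difference of Gpc3 was not the same in all libraries. Root tdTomato had 55.1 CPM of Gpc3 in female cells (52.0 to 58.4) and 25.2 CPM in male cells (19.99 to 31.4), and within cluster 5 the values were 53.8 CPM in 754 female and 31.1 CPM in 138 male cells. In Asc-GFP the levels were 14.5 CPM in female and 10.3 CPM in male cells. In Asc-RFP they were 59.0 CPM in female and 54.5 CPM in male cells, with overlapping intervals. In Arch-GFP as a whole female cells were the lower ones, with 27.2 CPM against 31.8 CPM in male cells. That direction did not hold within its clusters 0, 1 and 3, where female cells had 13.2, 12.6 and 15.1 CPM and male cells 10.3, 9.51 and 1.43 CPM in the same order, with intervals apart in cluster 3 alone. The male value of cluster 3 was 1 UMI in 54 cells, against 185 UMIs in 768 female cells. The other Arch-GFP clusters were not split by sex, among them cluster 6, which held 64.8% of the library's Gpc3 UMIs. The sex difference of Arch-GFP as a whole is therefore not resolved by cluster. Among male cells only, Root tdTomato over Asc-RFP therefore had a Gpc3 log2 ratio of -1.11, against -0.18 (-0.27 to -0.08) with all cells. Gpc4, known in mice as a signal from astrocytes to synapses and as a Wnt co-receptor, varied little: 17.7 CPM in Arch-GFP, 23.9 CPM in Root eGFP, 19.9 CPM in Root tdTomato, 20.7 CPM in Asc-GFP cells and 19.5 CPM in Asc-RFP. Neighbours in the order of Gpc4 levels all had overlapping intervals, and all 6 log2 ratios lay between -0.43 and 0.26. Arch-GFP, the lowest, was apart from Asc-GFP (log2 ratio -0.23, -0.32 to -0.13) and from Root eGFP (-0.43, -0.65 to -0.20). Arch-GFP over Root eGFP passed 1.5-fold with a stricter cell filter (-0.61) and in male cells (-0.74). Root eGFP over Root tdTomato passed it in male cells (0.75).

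Gpc1, a glypican that assists FGF and VEGF binding, was scarce and highest in the arch. It stood at 12.5 CPM in Arch-GFP (11.8 to 13.2), 6.39 CPM in Root eGFP (4.73 to 8.45), 5.56 CPM in Root tdTomato (4.69 to 6.55), 8.26 CPM in Asc-GFP (7.66 to 8.90) and 8.58 CPM in Asc-RFP (7.82 to 9.40). The Arch-GFP interval lay above all others, and the other neighbours in order overlapped. The log2 ratio was 0.60 (0.46 to 0.73) for Arch-GFP over Asc-GFP, close to the 1.5-fold line, and 0.97 (0.56 to 1.41) for Arch-GFP over Root eGFP. Root tdTomato over Asc-RFP had -0.63 (-0.91 to -0.35). The first was within 1.5-fold with trimmed mean scaling (0.57), in female cells (0.42), within clusters (0.47) and without cluster 6 (0.49), and the second only within clusters (0.58). The last was within 1.5-fold with equal cell weights (-0.58), in female cells (-0.56), within clusters (-0.39) and without cluster 5 (-0.45). Of the 3 measured genes that overlap Gpc1 on the opposite strand, Ankmy1 was the highest, with at most 1.51 CPM in any group. The antisense genes over Gpc3 had 0 UMIs and those over Sdc3 at most 6 UMIs per library. Gpc2, a glypican known from the developing nervous system, had 0.88 CPM in Arch-GFP, 0.65 CPM in Root eGFP, 0.70 CPM in Root tdTomato, 0.76 CPM in Asc-GFP cells and 0.80 CPM in Asc-RFP. All neighbouring Gpc2 intervals overlapped, so no difference was detectable at this depth.

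**Figure D3:**
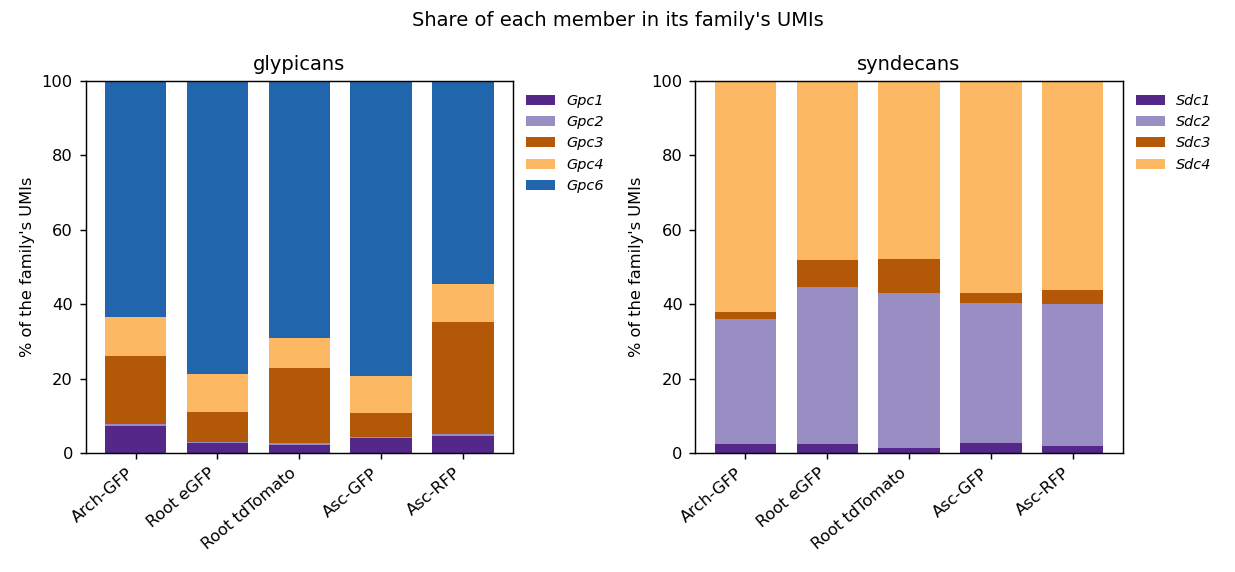
Share (%) of each gene in the UMIs of its family, glypicans on the left and syndecans on the right, in Arch-GFP, Root eGFP, Root tdTomato, Asc-GFP and Asc-RFP. Gpc6 makes up 54.5% of glypican UMIs in Asc-RFP and 79.2% in Asc-GFP, and Sdc3 takes a larger share of syndecan UMIs in both Root groups.

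Taken as a family, the glypicans summed to 170.5 CPM in Arch-GFP, 232 CPM in Root eGFP, 246 CPM in Root tdTomato, 208 CPM in Asc-GFP cells and 188 CPM in Asc-RFP. UMIs are counted at the 3′ end, so shares among genes are shares of captured molecules and depend on how well each 3′ end is captured. Gpc6 made up 63.5% of glypican UMIs in Arch-GFP, 78.7% in Root eGFP, 69.0% in Root tdTomato, 79.2% in Asc-GFP and 54.5% in Asc-RFP. Gpc3 made up 18.2% in Arch-GFP, 7.996% in Root eGFP, 20.4% in Root tdTomato, 6.45% in Asc-GFP and 30.1% in Asc-RFP. Asc-RFP thus had the largest Gpc3 share and the smallest Gpc6 share, while the 2 GFP groups of root and ascending aorta had similar shares. With cells thinned to 5000 UMIs, 51.2% of Arch-GFP cells had a UMI of any of the 5 glypicans, 64.6% of Root eGFP, 67.5% of Root tdTomato, 60.0% of Asc-GFP and 56.5% of Asc-RFP.

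Among the syndecans, Sdc3 set the root apart. Sdc3 is known from the nervous system and from skeletal muscle precursor cells as a receptor for heparin-binding growth factors. It stood at 7.37 CPM in Arch-GFP (6.85 to 7.92), 30.4 CPM in Root eGFP (26.6 to 34.5), 36.6 CPM in Root tdTomato (34.3 to 39.0), 9.75 CPM in Asc-GFP (9.09 to 10.4) and 13.2 CPM in Asc-RFP (12.3 to 14.2). Both Root groups were above the other 3, their own intervals just overlapped, and the 3 others were apart from each other. The log2 ratio was 1.64 (1.42 to 1.85) for Root eGFP over Asc-GFP, 1.47 (1.33 to 1.61) for Root tdTomato over Asc-RFP and -2.04 (-2.26 to -1.83) for Arch-GFP over Root eGFP. All 3 stayed past 1.5-fold under all 16 alternatives, the one nearest the line being Root tdTomato over Asc-RFP at 0.89. Another tdTomato limit for Root cells could not change the ratios with Root eGFP. The reporter made less difference, with log2 ratios of -0.44 (-0.59 to -0.29) for Asc-GFP over Asc-RFP and -0.27 (-0.48 to -0.06) for Root eGFP over Root tdTomato. All Root values come from 1 library, so root and library cannot be told apart.

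Cluster 5 had the highest Sdc3 level of the smooth muscle clusters. Root cells of this cluster had 46.9 CPM (43.9 to 49.97), against 23.3 CPM (21.1 to 25.6) in the other Root cells outside the macrophage-like, endothelial-like and low-UMI clusters. The log2 ratio was 1.01 (0.84 to 1.18). Sdc3 was the 1 gene of 8 past 1.5-fold higher there, and 0 of 8 were lower, beside 3.16% of all genes higher and 1.66% lower. Within cluster 5 the reporters hardly differed, with 46.1 CPM in Root eGFP (38.1 to 55.3) and 44.9 CPM in Root tdTomato (41.5 to 48.6). The 72 Asc-RFP cells of cluster 5 had 50.2 CPM (36.6 to 67.2), close to Root and above the 12.0 CPM of Asc-RFP cells in cluster 0. These cells may not be like those of Root. Mesothelial markers summed to 11.4 CPM in cluster 5 over all libraries, but to 0.05 CPM in its Root cells, with 1 of 6 detected. In Asc-RFP as a whole they summed to 4.80 CPM, and their part in the Asc-RFP value of cluster 5 was not tested. Cluster 5 was led by Corin, Lum and C3 and by Tnnt2, and its cardiomyocyte markers summed to 1409 CPM with 8 of 8 detected, against 442 CPM and 8 of 8 in the other Root cells, most of it Tnnt2 (1334 CPM in cluster 5 and 372 CPM in the other Root cells). Its fibroblast markers summed to 1068 CPM with 10 of 10 detected, against 905 CPM and 9 of 10 in the other Root cells (Dpt at 0), and the part of either list in the Sdc3 level was not tested. Outside cluster 5 the Root level was still above the ascending one, with 28.0 CPM in Root cells of cluster 0, against 10.1 CPM in Asc-GFP cells and 12.0 CPM in Asc-RFP cells of that cluster. In cluster 3 the order was the same but the gap smaller, with 16.6 CPM in Root (13.6 to 20.1), against 12.1 CPM in Asc-GFP (10.2 to 14.1) and 12.2 CPM in Asc-RFP (10.05 to 14.7), and these intervals overlapped.

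Macrophage-like cells were the richest in Sdc3 of all clusters. They had 90.2 CPM (75.03 to 107.6), with 86.0 CPM in those of Root and 104 CPM in those of Asc-RFP. Macrophage markers summed to 0.94 CPM in Arch-GFP with Adgre1 at 0, and to 22.4 CPM in Root eGFP, 691 CPM in Root tdTomato, 5.80 CPM in Asc-GFP cells and 192 CPM in Asc-RFP with all 10 of 10 detected. Without the macrophage-like, endothelial-like and low-UMI clusters, Sdc3 was 30.4 CPM in Root eGFP, 35.6 CPM in Root tdTomato and 12.6 CPM in Asc-RFP, so the Root level was nearly as large without these cells. After thinning to 5000 UMIs, 3.75% of Arch-GFP cells had an Sdc3 UMI (3.31 to 4.23), 14.5% of Root eGFP (11.7 to 17.6), 15.3% of Root tdTomato (13.7 to 17.1), 4.56% of Asc-GFP (4.05 to 5.13) and 6.35% of Asc-RFP (5.57 to 7.20). Endothelial-like Root cells had 13.3% (4 of 30, 3.76 to 30.7) and macrophage-like Root cells 31.7% (20 of 63, 20.6 to 44.7), so neither class gave a background level for this gene.

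Sdc4 and Sdc2 were the abundant syndecans and differed little. Sdc4, the syndecan of focal adhesions that works with integrins and protein kinase C alpha, had 222 CPM in Arch-GFP (219 to 225), 200.4 CPM in Root eGFP (190.5 to 211), 189 CPM in Root tdTomato (184 to 194), 201 CPM in Asc-GFP (198 to 204) and 191 CPM in Asc-RFP (187 to 195). Arch-GFP was above the rest and all other neighbours overlapped, and all 6 log2 ratios lay between -0.01 and 0.15. Sdc2, typical of mesenchymal cells, had 120.3 CPM in Arch-GFP (118 to 122), 175 CPM in Root eGFP (166 to 185), 164 CPM in Root tdTomato (159 to 169), 133 CPM in Asc-GFP (130.2 to 135) and 129.9 CPM in Asc-RFP (127 to 133). Sdc2 was thus higher in both Root groups, with log2 ratios of 0.40 (0.32 to 0.48) for Root eGFP over Asc-GFP and 0.33 (0.28 to 0.39) for Root tdTomato over Asc-RFP, within 1.5-fold. Arch-GFP over Root eGFP had -0.55 (-0.63 to -0.46), just within it. Across clusters Sdc4 was highest in cluster 2, whose median depth was 0.35 of that of its libraries, at 254 CPM, with 234 CPM in cluster 6 and 231 CPM in cluster 4. Sdc2 was highest in cluster 5, at 189 CPM.

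Sdc1, best known from epithelia and plasma cells, was scarce. It stood at 8.59 CPM in Arch-GFP (8.02 to 9.18), 9.91 CPM in Root eGFP (7.81 to 12.4), 5.64 CPM in Root tdTomato (4.76 to 6.63), 9.23 CPM in Asc-GFP (8.59 to 9.90) and 6.21 CPM in Asc-RFP (5.56 to 6.91). The 3 GFP groups were above both tdTomato groups, and intervals overlapped within each set but not between them. The log2 ratio was 0.81 (0.39 to 1.22) for Root eGFP over Root tdTomato, resting on 76 UMIs in eGFP cells and 145 in tdTomato cells, and 0.57 (0.38 to 0.76) for Asc-GFP over Asc-RFP, just under 1.5-fold. It was past 1.5-fold, between 0.59 and 0.85, under 7 alternatives, the highest being the mean within clusters. In male cells the Root log2 ratio was 0.06, from 6 UMIs in eGFP and 23 in tdTomato cells, and without cluster 5 it was 0.57. Endothelial-like cells had the highest Sdc1 level of any cluster, 78.8 CPM (57.9 to 105), from 47 UMIs in 70 cells. The 54 of these cells in Root had 30.4 CPM (16.2 to 52.0), from 13 UMIs. The other UMIs lay in few cells, 14 of them from Asc-RFP. Without the macrophage-like, endothelial-like and low-UMI clusters Asc-RFP had 5.64 CPM of Sdc1, and Asc-GFP over Asc-RFP had a log2 ratio of 0.71, past 1.5-fold. The 4 syndecans summed to 358 CPM in Arch-GFP, 416 CPM in Root eGFP, 395 CPM in Root tdTomato, 353 CPM in Asc-GFP cells and 340.2 CPM in Asc-RFP, and Sdc3 made up 2.06%, 7.30%, 9.28%, 2.76% and 3.89% of these sums in the same order of groups.

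**Figure D4:**
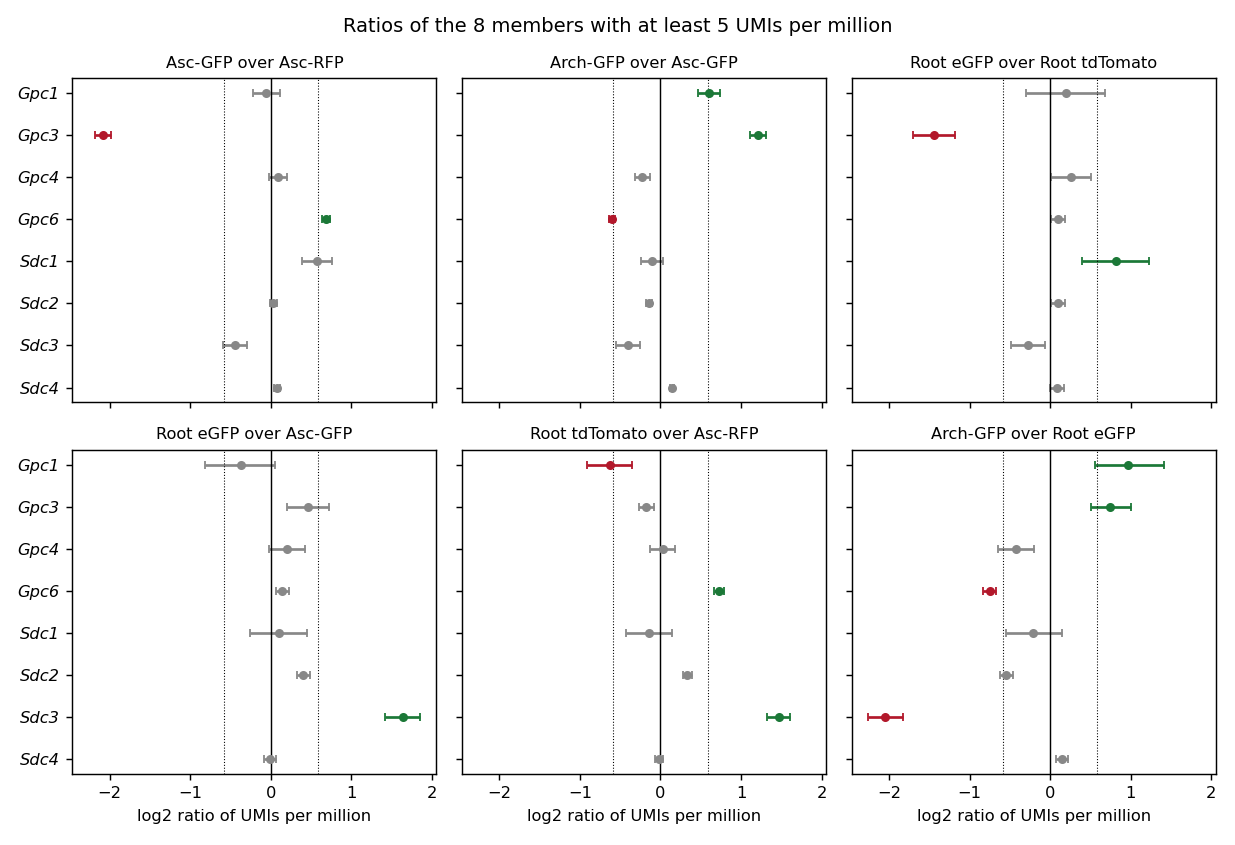
Log2 ratios of CPM for the 8 genes at or above 5 CPM in 6 comparisons (first-named group over the second), with exact 95% conditional binomial intervals; dotted lines mark 1.5-fold, and green and red points lie past it. Gpc3 and Sdc3 reach about 2 in size, and Sdc4 stays near 0 in every panel.

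Counted over the 8 genes at or above 5 CPM, 1 to 4 were past 1.5-fold in each comparison. Asc-GFP over Asc-RFP had 1 higher (Gpc6) and 1 lower (Gpc3), beside 1.32% of all genes at that level higher and 1.55% lower. Root eGFP over Root tdTomato had 1 higher (Sdc1) and 1 lower (Gpc3), beside 1.1% higher and 3.22% lower. Arch-GFP over Asc-GFP had 2 higher (Gpc1 and Gpc3) and 1 lower (Gpc6), beside 1.73% and 0.534%. Root eGFP over Asc-GFP had 1 higher (Sdc3) and 0 lower, beside 2.8% and 2.97%. Root tdTomato over Asc-RFP had 2 higher (Gpc6 and Sdc3) and 1 lower (Gpc1), beside 4.46% and 2.28%. Arch-GFP over Root eGFP had 2 higher (Gpc1 and Gpc3) and 2 lower (Gpc6 and Sdc3), beside 5.53% and 3.73%. At 2-fold, Asc-GFP over Asc-RFP had 0 higher and 1 lower (Gpc3), beside 0.36% and 0.916% of all genes, and Root eGFP over Root tdTomato 0 higher and 1 lower (Gpc3), beside 0.304% and 1.91%. Arch-GFP over Asc-GFP had 1 higher (Gpc3) and 0 lower at 2-fold, beside 0.771% and 0.144%, and Root eGFP over Asc-GFP 1 higher (Sdc3) and 0 lower, beside 1.07% and 0.903%. Root tdTomato over Asc-RFP had 1 higher (Sdc3) and 0 lower at 2-fold, beside 2.13% and 0.87%, and Arch-GFP over Root eGFP 0 higher and 1 lower (Sdc3), beside 2.29% and 1.58%. The genes were chosen with such ratios known, and the comparisons share groups, so nothing is read from these counts. The median log2 ratio of the 8 genes lay between -0.32 for Arch-GFP over Root eGFP and 0.17 for Root eGFP over Asc-GFP, and that of all genes between -0.01 and 0.05.

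Of 38 genes for enzymes that build and trim heparan sulfate, 23 or 24 reached 5 CPM in a comparison, and their median log2 ratio lay between -0.05 and 0.15. Past 1.5-fold were 1 of 23 higher in Asc-GFP over Asc-RFP (Xylt1), beside 1.32% of all genes, 1 of 23 lower in Arch-GFP over Asc-GFP (Hs6st2), beside 0.534%, and 1 of 24 lower in Root eGFP over Root tdTomato (Papss2), beside 3.22%. A further 1 of 24 was higher in Root eGFP over Asc-GFP (Ndst3), beside 2.8%, 2 of 24 were higher in Root tdTomato over Asc-RFP (Ndst3 and Papss2), beside 4.46%, and 1 of 24 was lower in Arch-GFP over Root eGFP (Ndst3), beside 3.73%. With lists this short, 1 gene is a larger share than most of these percentages, and nothing is read from the counts. Papss2, which makes the sulfate donor, had 20.1 CPM in Root tdTomato against 6.41 CPM in Asc-RFP, and 9.65 CPM in Root eGFP. Ndst3, a sulfotransferase acting on the growing chain, had 6.45 CPM in Root tdTomato against 1.82 CPM in Asc-RFP, and 7.69 CPM in Root eGFP against 4.47 CPM in Asc-GFP. Xylt1, which starts the sugar chain, had 7.94 CPM in Asc-GFP cells against 5.26 CPM in Asc-RFP. Hs6st2, a sulfotransferase, had 5.04 CPM in Arch-GFP cells against 8.01 CPM in Asc-GFP. The polymerase gene Ext1 (92.6 to 144 CPM) and the sulfatase gene Sulf1 (139 to 149 CPM) were abundant in all 5 groups and within 1.5-fold in all 6 comparisons.

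Of 8 other surface or matrix proteoglycans, 6 or 7 reached 5 CPM. In 4 of the 6 comparisons 0 were past 1.5-fold. Root eGFP over Root tdTomato had 2 of 7 lower (Srgn and Nrp1), beside 3.22% of all genes, and Root tdTomato over Asc-RFP had 3 of 7 higher (Srgn, Cd44 and Nrp1), beside 4.46%. Nrp1, a co-receptor for VEGF and semaphorins, had 27.4 CPM in Root eGFP against 48.4 CPM in Root tdTomato, while Asc-RFP stood at 27.8 CPM. Cd44, the hyaluronan receptor, had 31.3 CPM in Root tdTomato against 17.4 CPM in Asc-RFP. Srgn, a proteoglycan of blood cell granules, had 0.78 CPM in Root eGFP against 7.19 CPM in Root tdTomato, groups whose macrophage markers summed to 22.4 CPM in Root eGFP and 691 CPM in Root tdTomato. The part of those cells in the Srgn level was not tested. The basement membrane proteoglycan genes Hspg2 and Col18a1 were abundant everywhere and within 1.5-fold.

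Of 29 partners and releasing enzymes, 23 reached 5 CPM in each comparison, with median log2 ratios between -0.03 and 0.08. The counts past 1.5-fold were 1 higher (Fgfr2) and 1 lower (Cxcl12) in Asc-GFP over Asc-RFP, beside 1.32% and 1.55% of all genes, 1 higher (Cxcl12) in Arch-GFP over Asc-GFP, beside 1.73%, and 1 lower (Cxcl12) in Root eGFP over Root tdTomato, beside 3.22%. They were 0 in Root eGFP over Asc-GFP, 3 higher (Cxcl12, Adamts1 and Fgf1) in Root tdTomato over Asc-RFP, beside 4.46%, and 1 higher (Fgfr2) and 1 lower (Fgf1) in Arch-GFP over Root eGFP, beside 5.53% and 3.73%. Cxcl12, a chemokine that binds heparan sulfate, had 42.0 CPM in Arch-GFP, 38.5 CPM in Root eGFP, 84.98 CPM in Root tdTomato, 27.1 CPM in Asc-GFP cells and 49.2 CPM in Asc-RFP. Like Gpc3, it was lower in GFP than in tdTomato cells of both root and ascending aorta. Fgfr2, an FGF receptor, had 37.6 CPM in Arch-GFP, 22.3 CPM in Root eGFP, 16.99 CPM in Root tdTomato, 25.3 CPM in Asc-GFP cells and 16.3 CPM in Asc-RFP. The integrin gene Itgb1 and the syndecan-binding scaffold gene Sdcbp were within 1.5-fold throughout.

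Of 16 hedgehog pathway genes, 9 to 12 reached 5 CPM, with median log2 ratios between -0.13 and 0.29. Asc-GFP over Asc-RFP had 1 of 10 higher (Ihh) and 1 of 10 lower (Gas1), beside 1.32% and 1.55% of all genes, Arch-GFP over Asc-GFP had 1 of 12 higher (Hhip), beside 1.73%, and Root eGFP over Root tdTomato had 0 of 9. Both Root groups over the ascending group of the same reporter had 1 of 10 lower (Gas1), beside 2.97% for eGFP and 2.28% for tdTomato. Arch-GFP over Root eGFP had 4 of 12 higher (Hhip, Gas1, Gli2 and Gli1), beside 5.53%. Gas1, a surface co-receptor for hedgehog, had 56.9 CPM in Arch-GFP, 22.7 CPM in Root eGFP, 28.8 CPM in Root tdTomato, 38.4 CPM in Asc-GFP cells and 60.2 CPM in Asc-RFP. Hhip, a decoy receptor for hedgehog ligands and one of the genes that lead cluster 6, had 9.21 CPM in Arch-GFP cells against 0.14 CPM in Asc-GFP. It had 0 UMIs in Root eGFP, so Arch-GFP was at least 23.5-fold higher when set against 3 counts over Root eGFP. Ihh, a hedgehog ligand, had 7.98 CPM in Asc-GFP cells against 5.02 CPM in Asc-RFP. Ptch1, the hedgehog receptor and a target gene of the pathway, lay between 10.1 and 12.2 CPM in all 5 groups. Within Arch-GFP it differed by cluster, with 15.6 CPM in cluster 6 against 9.08 CPM in the other Arch-GFP cells. Gas1 had 133 CPM in cluster 6 against 42.9 CPM in the other Arch-GFP cells, Gli2 12.9 CPM in cluster 6 against 6.04 CPM, and Hhip 54.2 CPM in cluster 6 against 0.92 CPM. Cdon had 18.1 CPM in cluster 6 against 9.17 CPM, and Boc 28.3 CPM against 17.3 CPM. The other listed genes at or above 5 CPM differed less. They were Gli1 (7.26 CPM in cluster 6 against 5.15 CPM), Gli3 (6.43 against 5.09) and Ihh (8.66 against 8.18). The rest were Sufu (11.2 against 8.57), Smo (47.4 against 33.2) and Lrp1 (312 against 272). Of all genes, 12.1% were at least 1.5-fold higher in cluster 6. The hedgehog genes took part in the clustering or could have, so the cluster values are descriptions.

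The genes whose pattern was most like that of Gpc3 and Sdc3 were looked up over 23 sets of cells, each of 1 cluster and 1 library, among 5985 genes. The 23 sets share 4 libraries and 8 clusters, so the correlations are descriptions. For Gpc3 the 3 genes with the highest Pearson correlation of log2(CPM + 1) were Dpysl3 (0.88), Cxcl12 (0.83) and App (0.83). Their range over the groups was narrower than that of Gpc3: Dpysl3, for one, had 247 CPM in Arch-GFP, 263 CPM in Root eGFP, 275 CPM in Root tdTomato, 228 CPM in Asc-GFP cells and 293 CPM in Asc-RFP. For Sdc3 they were Arhgdib (0.89), Tmem204 (0.85) and Pcdh9 (0.84). Arhgdib had 3.00 CPM in Arch-GFP, 25.9 CPM in Root eGFP, 63.4 CPM in Root tdTomato, 6.54 CPM in Asc-GFP cells and 13.4 CPM in Asc-RFP. Tmem204 had 6.40 CPM in Arch-GFP, 20.2 CPM in Root eGFP, 32.6 CPM in Root tdTomato, 7.99 CPM in Asc-GFP cells and 8.91 CPM in Asc-RFP. As with Sdc3, both Root groups were the highest for Arhgdib and for Tmem204, which were picked for their likeness to Sdc3 in these libraries. The group values include the macrophage-like cells, whose part in them was not tested.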

How the data were processed

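The authors deposited 4 matrices of raw UMI counts, written by Cell Ranger 7.0.0 per the file headers. The submitters' processing notes name the mm10 build and Seurat 4.3, from which nothing was used. Per the labels' protocols, libraries used the 3′ v3.1 chemistry. No source used here says whether intronic or antisense reads were counted. Arch-GFP held 10506 barcodes, of which 8031 were kept, Root 4040 and 2960, Asc-GFP 8845 and 6408, and Asc-RFP 6539 and 4030. The barcodes match the cell numbers that the labels state before filtering. After the authors' own filter the labels state 4710, 1841, 4050 and 2450 cells in that order.

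UMIs were summed per group and divided by all UMIs of the group (CPM), with exact Poisson, conditional binomial and binomial intervals in scipy 1.17.1. No test was run, since each group is 1 library. A gene at 5 CPM or more in either group was called at 1.5-fold. Cells were clustered with 2000 variable genes without the 9 genes, reporters and sex-linked markers, 30 principal components, 15 neighbours and Leiden at resolution 0.5 (leidenalg 0.10.2, seed 1), with no integration. Clusters with at least 3 markers of another cell type among their 10 leading genes were named for it. No doublet caller was run and free RNA was not removed. Cells of known sex had UMIs of Xist or of Y-linked genes and not both. Cells with both made up 10.2% of Arch-GFP, 1.93% of Root, 9.47% of Asc-GFP and 5.26% of Asc-RFP. The 32158 features matched by identifier to GENCODE gave positions. Computation was checked on simulated counts.

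The genes and lists were chosen with earlier results of these data known. Named were all 9 genes, up to 4 genes per list and comparison by size of log2 ratio (those past 1.5-fold), and the 3 genes most like each gene with at least 20 CPM in a library and a 2-fold range. A few abundant or textbook list genes within 1.5-fold were added after their values were seen. Alternatives changed scaling, cell weights, filters, sexes, clusters and gates.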

Additional observations from a re-analysis of the deposited data

How the results depend on the processing

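No paired analysis was possible because each group is 1 library and the result comes from no test. Each of 54 log2 ratios was recomputed under up to 16 alternatives (14 where Gpc2 had too few UMIs), and 15 ratios were past 1.5-fold as reported. Of these, 5 stayed past it under all 16: Gpc3 by reporter in both segments, and Sdc3 in its 3 comparisons with Root. Not every alternative could change every ratio, and such unchanged values stay in the counts. Other reporter limits for Root cells leave ratios among Asc-GFP, Asc-RFP and Arch-GFP as they are. Another tdTomato limit leaves Root eGFP as it is. Limits in every library, or leaving out cluster 6, leave Root eGFP over Root tdTomato as it is. Of 858 recomputed ratios 3 turned round, all of Gpc3: Arch-GFP over Asc-GFP without cluster 6 (-0.035), and Arch-GFP over Root eGFP without cluster 6 (-0.51) and within clusters (-0.46). Leaving out clusters 2, 5 or 6 was chosen after seeing the data. Trimmed mean scaling shifted log2 ratios by at most 0.033.

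Of the 8 genes, Asc-GFP over Asc-RFP had 2 higher in place of 1 with equal cell weights, all barcodes, male cells, or without classes of other cells, cluster 5 or the deepest cells, and 0 at 2-fold. Arch-GFP over Asc-GFP had 1 higher in place of 2 with trimmed mean scaling, in female cells, at 20 CPM and at 2-fold, and 0 within clusters and without cluster 6. It had 0 lower in place of 1 with the strict filter, in either sex, within clusters, without cluster 2 or 6 and at 2-fold. Root eGFP over Root tdTomato had 2 higher in place of 1 in male cells, and 0 without cluster 5, at 20 CPM and at 2-fold. The 2 in male cells were Gpc1 (0.995, from 6 eGFP UMIs) and Gpc4 (0.75, from 24), and Sdc1 was no longer among them (0.06). Root eGFP over Asc-GFP had 2 higher in place of 1 in male cells, and 2 higher and 1 lower with the strict filter. Root tdTomato over Asc-RFP had 1 higher in place of 2 in male cells, within clusters, without cluster 5 and at 2-fold. It had 2 lower in place of 1 in male cells, and 0 with equal cell weights, in female cells, within clusters, without cluster 5, at 20 CPM and at 2-fold. Arch-GFP over Root eGFP had 1 higher in place of 2 in female cells, without cluster 6 and at 20 CPM, and 0 within clusters and at 2-fold. It had 1 lower in place of 2 in female cells and at 2-fold, 3 with the strict filter and 4 in male cells. The causes were not tested.

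Of the listed genes, a minimum of 20 CPM took the sulfate synthesis genes past 1.5-fold to 0 in 4 comparisons and to 1 in Root tdTomato over Asc-RFP. It took the hedgehog genes that were higher to 0 in Asc-GFP over Asc-RFP and Arch-GFP over Asc-GFP and to 1 in Arch-GFP over Root eGFP, and the other proteoglycans lower in Root eGFP to 1. Fewer genes were counted at that level. Depth limits Gpc2 throughout, and Root eGFP, which had 5 to 1537 UMIs per gene.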
